A study of Caenorhabditis elegans with 4 samples.

Results

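The troponin genes of Caenorhabditis elegans described here are 10 named genes of the 14943 on the array, each taken by its symbol in the platform annotation and each measured by 1 spot. They encode 4 troponin T proteins (tnt-2, tnt-3, mup-2 and tnt-4), 4 troponin I proteins (unc-27, tni-1, tni-3 and tni-4) and 2 troponin C proteins (pat-10 and tnc-2). The data were 4 spotted 2-channel arrays. On each, mRNA of glp-4 adults (preps 1 to 4) was set against a wild-type mixed reference RNA. The sources used here do not give the glp-4 allele, the temperature, the age of the adults or the make-up of the reference. They also do not say that the preps came from separate cultures. The p-values set a mean against the spread of these 4 preps, moderated by that of all features, and this spread may be technical.

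Troponin sits on the thin filament of muscle and makes contraction depend on calcium. Troponin C binds the calcium, troponin I holds back the interaction of actin and myosin until it does, and troponin T ties both to tropomyosin. The worm has separate genes for different muscles: tnc-2, tni-4 and tnt-4 are known as the troponins of the pharynx, the muscular feeding pump, and the other genes are known from the body wall and from minor muscles such as those of egg laying. The glp-4 mutation is temperature-sensitive and, at the restrictive temperature, leaves adults with hardly any germ cells.

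Every value below is a log2 ratio of glp-4 adults over reference, and a value of 1 is a doubling of the ratio. This direction is likely, not certain: it rests on the labels, which name the reference as channel 1 and glp-4 as channel 2, but no dye. Were it the other way round, all signs would be turned. The deposited arrays have medians near 0, so a ratio compares a transcript with the rest of its array, and because the labels name no dissected tissue, fewer cells of a type and less RNA per cell cannot be told apart. All 16 germline marker genes were lower (median -3.20), in the direction of the glp-4 label, and 10 of 12 intestine markers were higher (median 2.37). Of all features tested, 20.9% were lower and 17% higher. Pairs of arrays had Pearson correlations across spots between 0.719 and 0.788. Prep 2 had the widest values (SD 1.21, against 0.871 to 1.06 on the other arrays) and the highest median of the troponin genes, 0.93. That median was 0.32 on prep 1, 0.52 on prep 3 and 0.29 on prep 4, where pat-10 had no value. The part of prep 2 in the results was not tested beyond leaving it out. The means of the troponin genes and the medians of the muscle lists without it are given with them.

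In glp-4 adults, 4 troponin genes were higher than in the reference: tnt-2, unc-27, mup-2 and pat-10, by 2.05-fold to 4.12-fold. All 4 belong to the 7 genes known from body wall and minor muscles. The pharyngeal troponin C gene tnc-2 was lower by 1.49-fold, and this call was lost under 9 of 13 other settings. The remaining 5 genes did not pass the threshold, an adjusted p under 0.05 in limma with Benjamini-Hochberg adjustment over all 19966 features tested. Over all features, 37.9% passed, 17% higher and 20.9% lower, beside 5 of 10 troponin genes, 4 higher and 1 lower. The higher features numbered 3400, and 2071 without prep 4. The median log2 ratio of the 10 genes was 0.45, beside 0.00 for all features tested. The sign was constant over all measured arrays for 7 of the 10 genes.

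**Figure D1:**
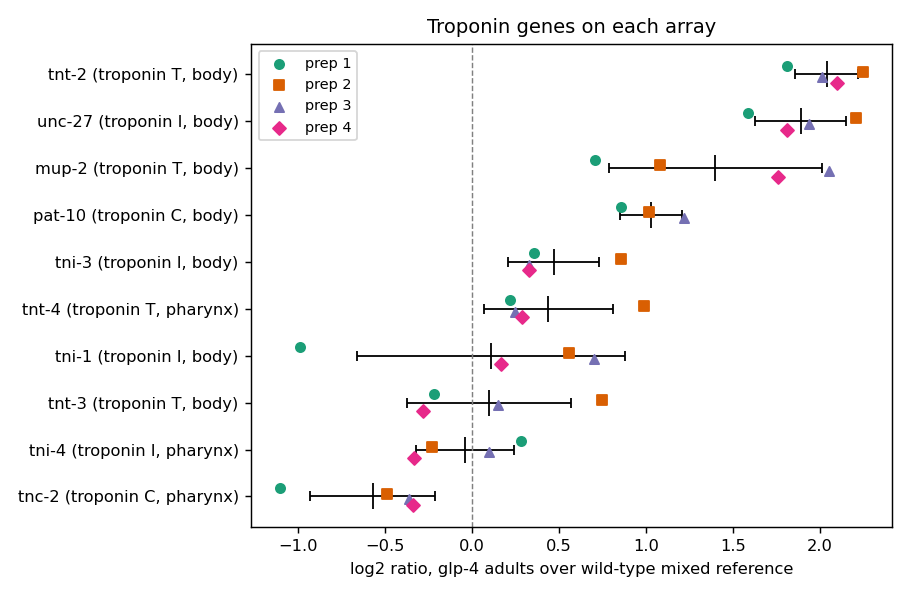
Log2 ratios of the 10 troponin genes (horizontal axis, glp-4 adults over wild-type mixed reference) on each of the 4 arrays, with the mean (vertical tick) and SD (bar) per gene. The 4 preps of tnt-2 and unc-27 lie between 1.59 and 2.25, while those of tni-1 spread between -0.99 and 0.70.

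Troponin T anchors the complex along the filament. The gene tnt-2 (F53A9.10) had log2 ratios of 1.81, 2.25, 2.01 and 2.10 on preps 1 to 4. Every prep was high and the spread was the narrowest of the 9 genes measured on 4 arrays, with a mean of 2.04 ± 0.18 (SD, n = 4 preps), a 95% interval of 1.69 to 2.40 and an adjusted p of 0.000184 in limma. On each array it stood at or above the 96.8th percentile of all features, and 369 features had a higher mean.

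The gene mup-2 (T22E5.5), named for the mispositioned muscles of its mutants, had values of 0.71, 1.08, 2.05 and 1.76. All were above 0, but preps 3 and 4, whose arrays share a date in their titles, were higher than preps 1 and 2, whose arrays share a title prefix. The part of these shared labels in the values was not tested. The mean was 1.40 ± 0.61 (2.64-fold higher, n = 4 preps, adjusted p = 0.00449 in limma), and it lay between 1.18 without prep 3 and 1.63 without prep 1.

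The gene tnt-3 (C14F5.3) had values of -0.22, 0.75, 0.15 and -0.28. They fell on both sides of 0, and the mean of 0.10 ± 0.47 (n = 4 preps, adjusted p = 0.718 in limma) turned to -0.11 without prep 2. Its interval of -0.39 to 0.59 leaves room for a change of either sign.

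The pharyngeal gene tnt-4 (T08B1.2) had values of 0.22, 0.99, 0.25 and 0.29. Prep 2 stood far above the other preps, which lay close together, and all were above 0. The mean of 0.44 ± 0.37 (n = 4 preps) did not pass (adjusted p = 0.0998 in limma), and without prep 2 it was 0.25. For scale, 1840 features of mostly weakly expressed classes (pseudogenes, chemoreceptor and F-box genes) had a median log2 ratio of 0.32, which is near the value of tnt-4. Without prep 2, the means of tnt-2 and mup-2 were 1.97 and 1.51.

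Troponin I is the inhibitory subunit. The gene unc-27 (ZK721.2), whose mutants move poorly, had log2 ratios of 1.59, 2.21, 1.94 and 1.81 on preps 1 to 4. All preps were high, and the mean was 1.89 ± 0.26 (3.70-fold, n = 4 preps, interval 1.51 to 2.27, adjusted p = 0.000315 in limma). It followed tnt-2 closely on every array: tnt-2 minus unc-27 was 0.22, 0.04, 0.07 and 0.29.

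The gene tni-3 (T20B3.2), known from body wall and egg-laying muscle, had values of 0.36, 0.86, 0.33 and 0.33. As for tnt-4, prep 2 was the high one and the other preps lay close together. The mean of 0.47 ± 0.26 (n = 4 preps) missed the threshold (adjusted p = 0.0574 in limma), passed it when arrays were quantile normalized (0.0424) or scaled to equal spread (0.0485), and was 0.34 without prep 2. Like that of tnt-4, the mean of tni-3 lay near the median of 0.32 of the classes taken to be mostly weakly expressed. The signal of tni-3 is not known either. In the RefSeq annotation tni-3 overlaps phy-3, whose log2 ratio was 1.33 ± 0.74, and whether the spot of tni-3 also reports phy-3 was not tested.

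The gene tni-1 (F42E11.4) had values of -0.99, 0.56, 0.70 and 0.17. Prep 1 was low while the other preps were above 0, which made it the most variable troponin gene. Its mean was 0.11 ± 0.77 (n = 4 preps, adjusted p = 0.781 in limma), with 0.48 without prep 1 and -0.04 without prep 2. The pharyngeal gene tni-4 (W03F8.1) had values of 0.28, -0.23, 0.10 and -0.33. Preps 1 and 3 lay above 0 and preps 2 and 4 below it, and the mean was -0.04 ± 0.28 (n = 4 preps, adjusted p = 0.851 in limma), or 0.02 without prep 2. The interval of tni-4, -0.44 to 0.35, lay below the intervals of the 4 higher genes. Without prep 2, unc-27 had a mean of 1.78.

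Troponin C is the calcium sensor, and its genes had opposite signs. The pharyngeal gene tnc-2 (ZK673.7) had log2 ratios of -1.10, -0.49, -0.36 and -0.34 on preps 1 to 4. All preps were below 0, with prep 1 the lowest. The mean was -0.57 ± 0.36 (1.49-fold lower, n = 4 preps, interval -1.0 to -0.14, adjusted p = 0.0441 in limma). The adjusted p rose to 0.130 without prep 1, where the mean was -0.40, and to 0.0910, 0.0768 and 0.0783 without prep 2, 3 or 4, and its range over 13 other settings was 0.0416 to 0.130. In the RefSeq annotation tnc-2 overlaps clec-143, which had a log2 ratio of 0.09 ± 0.29.

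The gene pat-10 (F54C1.7), the troponin C of body wall muscle, without which embryos become paralysed and stop elongating, had values of 0.86, 1.02 and 1.22 on preps 1 to 3 and no value on prep 4. The 3 values lay close together above 0, and the mean was 1.03 ± 0.18 (2.05-fold, n = 3 preps, interval 0.59 to 1.48, adjusted p = 0.00707 in limma). Without prep 2, the means of tnc-2 and pat-10 were -0.60 and 1.04.

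Because the genes of a pair share their array, a shift of a whole array cancels in the difference of their log2 ratios. For troponin C, tnc-2 minus pat-10 was -1.96, -1.51 and -1.58 on preps 1 to 3, with a mean of -1.68 ± 0.24 (3.21-fold, n = 3 preps). For troponin I, tni-4 minus unc-27 was -1.31, -2.44, -1.84 and -2.14 (mean -1.93 ± 0.48). For troponin T, tnt-4 minus tnt-2 was -1.60, -1.25, -1.76 and -1.81 (mean -1.60 ± 0.25). The counterparts given here for troponin I and T, unc-27 and tnt-2, had the highest means of their subunits in these data. Large differences from them were therefore partly built in. In each subunit the ratio of the pharyngeal gene lay below that of at least 1 body gene on every array that measured both. The 3 differences above exceeded the spread between preps.

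The pharyngeal genes were not below every counterpart. The difference tnt-4 minus mup-2 was negative on all 4 arrays but varied widely (-0.49, -0.09, -1.80 and -1.47, mean -0.96 ± 0.80), and tni-4 minus tni-3 was -0.51 ± 0.45. In contrast, tnt-4 exceeded tnt-3 on all 4 arrays, by 0.34 ± 0.21, and tni-4 minus tni-1 was -0.15 ± 0.96, with 1.27 on prep 1 and negative values elsewhere. With signs permuted, an exact two-sided test cannot go below p = 0.125 with 4 arrays or 0.25 with 3, so none of these 7 pairs could pass. The exact p was 0.125 for 5 pairs, 0.25 for tnc-2 minus pat-10 and 0.75 for tni-4 minus tni-1, and after Benjamini-Hochberg adjustment over the 7 pairs the exact values were 0.175, 0.292 and 0.75.

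**Figure D2:**
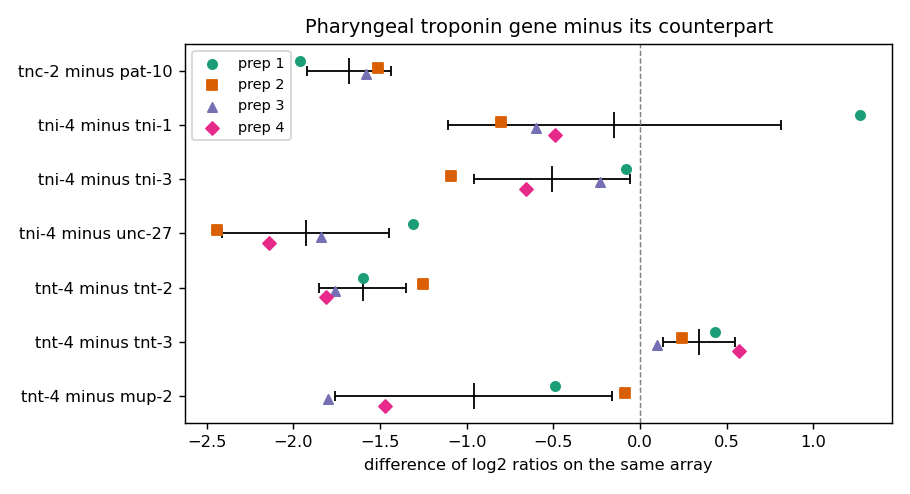
Difference of log2 ratios on the same array (horizontal axis), pharyngeal troponin gene minus a counterpart of the same subunit, for the 7 pairs. Points are preps, ticks are means and bars are SDs. The pairs with pat-10, unc-27 and tnt-2 lie at or below -1.25 on every measured array, and tnt-4 minus tnt-3 lies above 0.

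Within the body genes of a subunit the ratios also differed. The difference unc-27 minus tni-3 was 1.24, 1.35, 1.61 and 1.48 (mean 1.42 ± 0.16, n = 4 preps), and unc-27 minus tni-1 was 1.78 ± 0.57, both positive on 4 of 4 arrays. For troponin T, tnt-2 minus tnt-3 was 1.94 ± 0.37 and mup-2 minus tnt-3 was 1.30 ± 0.81, again positive on 4 of 4 arrays. The means of tni-1 and tnt-3 lay between those of the pharyngeal genes tnt-4 and tni-4.

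In the order of means, tnt-2 was highest, followed by unc-27, mup-2, pat-10, tni-3, tnt-4, tni-1, tnt-3, tni-4 and tnc-2. Of the 9 differences between neighbours in this order, those within the SD of the difference were mup-2 to pat-10 (0.25 ± 0.52), unc-27 to mup-2 (0.49 ± 0.61), tni-3 to tnt-4 (0.03 ± 0.12), tnt-4 to tni-1 (0.33 ± 0.69), tni-1 to tnt-3 (0.01 ± 0.62), tnt-3 to tni-4 (0.15 ± 0.62) and tni-4 to tnc-2 (0.53 ± 0.60). The step between pat-10 and tni-3 (0.52 ± 0.36 on 3 arrays) and the small step between tnt-2 and unc-27 (0.15 ± 0.12) exceeded it. The order from tni-3 to tnc-2 is not resolved by neighbouring steps.

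The troponins act on the thin filament, and the genes listed with it, which include regulators of actin, also went both ways. Of 19 tested genes of the thin filament and of actin regulation, 9 were higher and 3 lower, while 7 did not pass, and the median was 0.21, beside 0.00 for all features, and the same without prep 2. The share called was 63.2%, beside 37.9% of all features. Higher were the calponin-like gene clik-1 (1.63 ± 0.19), unc-87, which binds and bundles actin filaments (1.09 ± 0.33), the alpha-actinin gene atn-1 (1.08 ± 0.58) and the actin genes act-1 to act-4, at 0.67 ± 0.47 for act-2 to 1.03 ± 0.28 for act-4. The calls of act-1 and act-2 were lost without prep 2 or without prep 3, and that of act-2 also without prep 4. Since the actin genes are nearly identical, 1 spot may report more than its own gene. Lower were aipl-1 (-2.14 ± 0.17), cas-2 (-1.42 ± 0.21) and frg-1 (-0.79 ± 0.21). Whether these 3 genes report muscle or other tissue was not tested. The relative of aipl-1, unc-78, which with cofilin takes actin filaments apart in muscle, was higher (0.79 ± 0.14), as was cas-1 (1.02 ± 0.36), a relative of cas-2. The cofilin gene unc-60 did not pass (-0.24 ± 0.27). The tropomyosin gene lev-11 had no spot under its name and was not analysed here.

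Of 15 tested thick filament genes, 4 were higher and 1 was lower, and 10 did not pass. The share called, 33.3%, was below the 37.9% of all features. The median was 0.51, and it was 0.17 without prep 2 and 0.72 without prep 1. The 4 were the body wall myosin heavy chains myo-3 (1.11 ± 0.66) and unc-54 (1.09 ± 0.99), the paramyosin gene unc-15 (0.81 ± 0.54) and unc-96 (0.51 ± 0.21), the last named after its value was seen. The lower one was mlc-5 (-0.66 ± 0.07), a myosin light chain gene, and whether it reports muscle was not tested. The other light chain genes of the list, mlc-1, mlc-2 and mlc-3, were not among the tested genes. Without prep 1, 0 thick filament genes passed as higher, and 1 did without prep 2 or without prep 3; the calls of unc-54 and unc-15 were lost without prep 1, 2 or 3, that of myo-3 without prep 1 and that of unc-96 with any 1 prep left out. The gene unc-54 had values of 1.41, 2.20, 0.93 and -0.17 on preps 1 to 4, a wider range than that of tnt-2 or unc-27 on the same arrays. The pharyngeal myosin genes did not pass: myo-2 had a mean of -0.03 ± 0.71, myo-1 one of 0.11 ± 0.64 and myo-5 one of 0.07 ± 0.70.

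Of the 7 tested pharyngeal muscle markers, 0 were higher and 2 were lower in limma, the homeobox gene ceh-22 (-0.57 ± 0.16) and the potassium channel gene exp-2 (-0.59 ± 0.26), and the median was -0.01 (-0.24 without prep 2, 0.27 without prep 4). The call of ceh-22 was lost without prep 3 or 4 and that of exp-2 without prep 1, 3 or 4, so no marker was called lower without prep 3 or 4. The share called was 28.6%, beside 37.9% of all features. The remaining markers were eat-2 (0.29 ± 0.28) and avr-15 (-0.01 ± 0.14), receptor genes of pharyngeal muscle, and the myosin genes above. Of 8 body wall muscle markers, which share members with the thick filament list, 4 were higher and 0 lower. The share called was thus 4 of 8, beside 37.9% of all features, 17% higher and 20.9% lower. The highest was dim-1 (1.73 ± 0.67), the 1 marker that was called whichever prep was left out. The number of higher markers was 1 without prep 1 and 2 without prep 2 or 3, and the median was 0.88, or 0.49 without prep 2. The body wall regulators hlh-1 (0.02 ± 0.15) and unc-120 (-0.40 ± 0.15), named after their values were seen, did not pass. The medians of the body wall markers were 0.62, 1.83, 0.61 and 0.09 on preps 1 to 4. Of 9 markers of egg-laying muscle and gonad sheath, 4 were higher and 0 lower (median 0.16, or 0.10 without prep 2). Ahead were inx-9 (0.76 ± 0.30) and inx-8 (0.69 ± 0.35), gap junction genes of the sheath, followed by plc-1 (0.56 ± 0.12) and arg-1 (0.54 ± 0.31). The markers hlh-8 (0.16 ± 0.34), lim-7 (0.15 ± 0.15), ceh-18 (-0.01 ± 0.19), egl-15 (-0.38 ± 0.19) and ceh-24 (-0.43 ± 0.27), named after their values were seen, did not pass. Called on all preps together were 44.4% of the 9 markers, beside 37.9% of all features. Without prep 2, 1 of these markers was called, and without prep 3 or 4, 0 were.

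**Figure D3:**
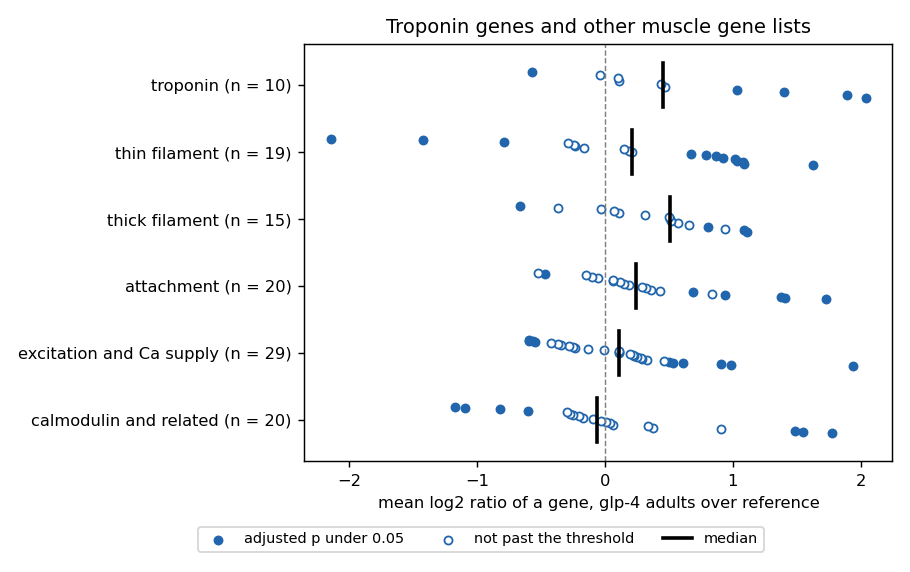
Mean log2 ratio of each gene (horizontal axis, glp-4 adults over reference) for the 10 troponin genes and 5 lists of other muscle and calcium genes. Filled points passed an adjusted p under 0.05 in limma and black bars are medians, 0.45 for the troponin genes and between -0.06 and 0.51 for the lists.

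Calcium reaches troponin through membrane channels and the stores of the cell. Of 29 tested genes of muscle excitation and calcium supply, 6 were higher, 4 lower and 19 did not pass. The share called, 34.5%, was near the 37.9% of all features, and the median was 0.11, or 0.06 without prep 2. Without prep 2, 3 or 4, 3 were higher, and 0 were lower without prep 1 or 4 and 2 without prep 2 or 3. The highest was itr-1, the receptor channel that releases stored calcium on the signal of inositol trisphosphate (1.94 ± 0.17), followed by the sodium pump gene eat-6 (0.99 ± 0.22), the store-operated channel gene orai-1 (0.91 ± 0.15) and calsequestrin, csq-1 (0.61 ± 0.18), whose call was lost without prep 2, 3 or 4. The genes itr-1 and orai-1 are also known from the intestine, so they are no measure of muscle alone. Main parts of the body wall calcium supply did not pass: the ryanodine receptor unc-68 (0.46 ± 1.05), the calcium pump sca-1 (-0.13 ± 0.34) and the calcium channel egl-19 (0.22 ± 0.32), named after their values were seen. The potassium channel gene shk-1 was lower (-0.59 ± 0.19, named after its value was seen), a call lost without prep 1, 3 or 4.

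Of 20 tested muscle attachment genes, 5 were higher and 1 was lower, and 14 did not pass. The share called, 30.0%, was below the 37.9% of all features, and the median was 0.24, or 0.10 without prep 2. The lower gene, stn-1 (-0.47 ± 0.13, named after its value was seen), was not called with any 1 prep left out. Besides dim-1, the collagen IV gene emb-9 (1.41 ± 0.73), the perlecan gene unc-52 (1.38 ± 0.33) and the zyxin gene zyx-1 (0.94 ± 0.19) were higher. Of 20 tested genes of calmodulin and other calcium-binding regulators, which include relatives of troponin C, 3 were higher, 4 lower and 13 did not pass. The share called, 35.0%, was near the 37.9% of all features, and the median was -0.06 (-0.05 without prep 2, 0.05 without prep 1). The calponin-like genes cpn-4 (1.78 ± 0.29) and cpn-3 (1.49 ± 0.27) and the calmodulin-like gene cal-5 (1.55 ± 0.33) were higher, and cal-2 was lower (-1.17 ± 0.23). The calponin-like gene cpn-1 was also lower (-0.82 ± 0.37, named after its value was seen). Calmodulin itself, cmd-1, did not pass (0.34 ± 0.10, named after its value was seen).

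The genes whose log2 ratios over the 4 arrays lay nearest to those of tnt-2, among 14400 named genes measured on all 4 arrays, were cest-9.1 (root mean square distance 0.08), snf-9 (0.10) and pfas-1 (0.14), with unc-27 the closest troponin gene at 0.19. Nearest to tnc-2 were hmp-1 (0.06), dhs-6 (0.08) and sna-3 (0.08), and the closest troponin gene was tni-4 at 0.74. These are distances over 4 arrays of 1 group. The genes next to tnt-2 in the RefSeq annotation, F53A9.9 (0.34 ± 0.26, not past the threshold) and EGAP4.1 (-1.35 ± 0.42, lower), and those next to unc-27, ZK721.3 (-0.66 ± 0.43, lower) and chup-1 (0.19 ± 0.12, not past the threshold), had lower ratios than either troponin gene.

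**Figure D4:**
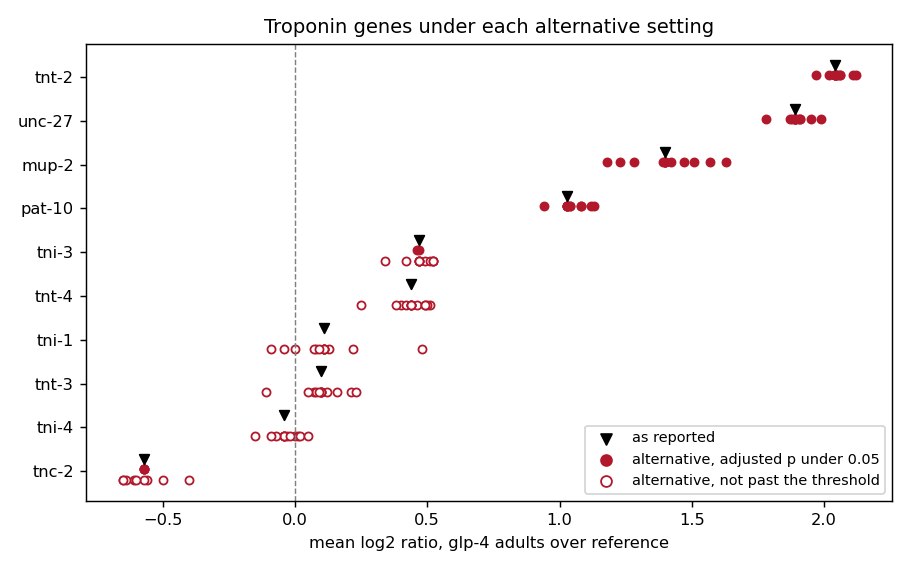
Mean log2 ratio of each troponin gene (horizontal axis, glp-4 adults over reference) as reported (triangles) and under up to 13 other settings (circles, filled where the adjusted p in limma was under 0.05). The 4 higher genes kept their call in every setting that measured them, and tnc-2 kept its call in 4 of 13.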

How the data were processed

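The authors deposited log2 ratios for 21632 spots, 1 column for each array; how these were made is not given in the sources read. The base was read from the values: on the 4 arrays together, 100% of values below -2 were the log2 of a whole multiple of a thousandth (tolerance 0.001 of a thousandth). Array medians lay between -0.0695 and 0.0759, and values were used without further centring. Signal over background and dyes are unknown; precision is limited by the number of arrays.

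Of the spots, 16450 had 1 gene in the platform annotation and 247 several, and 16360 had a gene number found in RefSeq (WBcel235). Spots of 1 gene were averaged, which left 20125 features. Features measured on 3 or more arrays entered limma 3.58.1 (R 4.3.3; an intercept, then eBayes), which gave a two-sided test of the mean log2 ratio against 0. pat-10 was fitted on 3 arrays. The reference is the only wild-type RNA, so its own spread is left out. The fit was tested on simulated data. Tables were made with Python 3.11.15 and pandas 2.3.3, plots with matplotlib 3.10.9.

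The members and lists were chosen with earlier results of these data known. All 10 members are named. Of each list, up to 4 genes past the threshold with the largest absolute mean are named, and any gene of the thin filament and pharyngeal muscle lists may be. For the highest and the lowest member, the 3 nearest named genes are given. Other genes are named after their values were seen. Alternatives were median centring, quantile normalization, scaling to equal spread, 2 or 4 arrays as the minimum, single probes, a robust variance prior and leaving out each prep. Lists of neuron, epidermis and pharyngeal gland markers were also counted: 0 of 15 neuron genes were higher and 8 lower, 3 of 12 epidermis genes were higher and 7 lower, and 1 of 4 gland genes was higher and 1 lower. Their shares called were 53.3%, 83.3% and 50.0%, beside 37.9% of all features.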

Additional observations from a re-analysis of the deposited data

Results flagged for a closer look

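Values were flagged where 1 prep lay far from the other 3 relative to the range of all 4. Of 106 sets of 4 values examined, 8 were flagged, 6 of them on prep 2. Chance flags about 1 in 20 such sets, and several of the genes were added after their values were seen. On prep 2, tnt-4 had a log2 ratio of 0.99, against 0.22 to 0.29 on the other preps, and tni-3 had 0.86, against 0.33 to 0.36. Also on prep 2, the titin-like genes ttn-1 (2.58, against -0.35 to -0.05), ketn-1 (2.39, against -0.22 to 0.11) and unc-89 (1.86, against 0.07 to 0.36) and the calcium channel gene egl-19 (0.69, against 0.02 to 0.14) were high. On prep 1, the difference tni-4 minus tni-1 was 1.27, against -0.80 to -0.49 on the other preps. EGAP4.1, next to tnt-2 in the annotation, had -0.72 on prep 1, against -1.58 to -1.55.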

How the results depend on the processing

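Under 13 other settings, 2 of them chosen after seeing the data (arrays of 1 title date, or of 1 title prefix, averaged), tnt-2, unc-27, mup-2 and pat-10 kept sign and call in every setting that measured them. The filter for all 4 arrays left pat-10 out, and 3 to 5 troponin genes were higher. The gene tnc-2 lost its call, leaving 0 lower troponin genes, with median centring (-0.56), quantile normalization (-0.57), equal spread (-0.61), title dates averaged (-0.65), title prefixes averaged (-0.50) and each prep left out (-0.65 to -0.40, 0 to 0 lower genes). The gene tni-3 passed with quantile normalization (0.46) and equal spread (0.47). Signs turned for tni-4 with quantile normalization (0.00), equal spread (0.01), without prep 2 (0.02) and without prep 4 (0.05), for tnt-3 without prep 2 (-0.11) and for tni-1 without prep 2 (-0.04) and prep 3 (-0.09), none of them past the threshold; with 1 prep left out, tni-4 ranged from -0.15 to 0.05, tnt-3 from -0.11 to 0.23 and tni-1 from -0.09 to 0.48. The difference tni-4 minus tni-1 ranged from -0.63 to 0.06. With 1 prep left out, higher features numbered 2071 to 2790, the fewest without prep 4, higher thick filament genes 0 to 3, lower attachment genes 0 to 1, higher and lower excitation genes 3 to 4 and 0 to 2, and the calmodulin median ran from -0.11 to 0.05. With title dates averaged, 0 attachment genes were lower, and 3 excitation genes were higher and 0 lower. Leaving out or averaging arrays leaves fewer samples; the cause of the other changes was not tested. A correlation between arrays of 1 title date or prefix, planned as a random block, could not be estimated with 3 blocks over 4 arrays and was not run. No pairing of arrays between groups was possible because all arrays belong to 1 group.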

Other observations

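The titin-like genes ttn-1, ketn-1 and unc-22, named after their values were seen, had SDs over preps of 1.39, 1.22 and 1.12, and the higher troponin genes tnt-2, unc-27, mup-2 and pat-10 had 0.18, 0.26, 0.61 and 0.18. A small SD helps a gene to pass the threshold, so this contrast was partly built in. The troponin genes that did not pass had SDs from 0.26 for tni-3 to 0.77 for tni-1. Other sarcomere genes lay within the range of the troponins, such as unc-15 (0.54) and clik-1 (0.19). The gene unc-22 had log2 ratios of 0.40, 2.59, 0.65 and 0.11 on preps 1 to 4, so prep 2 was the high one here too. The thick filament list had medians of 0.11, 1.25, 0.34 and -0.16 on preps 1 to 4, and the thin filament list 0.06, 0.42, 0.33 and 0.49. The gene T08B1.1, next to tnt-4 in the annotation, was higher at 2.46 ± 0.22, while tnt-4 did not pass. The gene sdz-37, next to tnc-2, had -0.60 ± 0.41, beside -0.57 ± 0.36 for tnc-2.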
